A study of Mus musculus with 2 samples.

Results

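Interferon-stimulated genes and the subunits of the interferon receptors were followed in freshly sorted, untreated neutrophils from mouse bone marrow. A list of 48 genes was used, and each was read from the probe sets that the platform annotation assigned to that gene symbol alone. Of the 48 genes, 45 had at least 1 such probe set (77 probe sets in all), out of 18194 genes measured in the series. Isg15, Tgtp1 and Ifi44 were not analysed here as single genes. The cells came from bone marrow of C57BL/6 mice, a wild-type inbred strain, and were sorted as DAPI-negative (live), Gr-1-high and CD48-negative cells on 2 occasions described as independent experiments. The study has 1 group, with 1 Affymetrix array for each experiment (replicate 1 and replicate 2), and no treated, infected or interferon-exposed cells. The labels give neither the age and sex of the mice nor whether marrow was pooled, so the spread between the arrays may hold biological and technical variation alike.

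Interferons are secreted proteins that alert cells to infection. Type I interferons bind a receptor made of Ifnar1 and Ifnar2, and interferon gamma binds one made of Ifngr1 and Ifngr2. Both receptors act through Janus kinases on STAT proteins. Together with the DNA-binding protein IRF9 these recognise the interferon-stimulated response element (ISRE) in promoters, and STAT pairs without IRF9 recognise the gamma-activated sequence. Many of the induced genes block viral entry, translation or replication, others sense viral nucleic acids or destroy the vacuoles of intracellular microbes. A low level of these genes in unstimulated leukocytes is often called tonic interferon signalling.

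The labelled cell type was checked on its markers, and 10 of 10 neutrophil markers, among them Ltf, Camp, S100a8 and Csf3r, were above background on both arrays. Background was taken from 87 probe sets of sensory receptor genes (for smell, pheromones and taste), and a signal counted as above it when it exceeded their 95th percentile, which was 108 on replicate 1 and 131 on replicate 2. The values are MAS5 signals in arbitrary units, and the mean of each array without the extreme 2% of probe sets at either end was the same. Of the genes listed as markers of other marrow cells, 4 of 8 monocyte, 3 of 8 macrophage and 2 of 6 conventional dendritic cell genes were above background. So were 1 of 8 plasmacytoid dendritic cell, 1 of 6 B cell, 1 of 6 T and NK cell and 3 of 6 erythroid genes. For comparison, 4 of 30 genes of other organs and 40.4% of all measured genes were above it. Whether neutrophils themselves express these markers was not tested. The ratio of 3' to 5' probe sets was 1.10 on replicate 1 and 1.25 on replicate 2 for beta-actin, and 0.762 and 0.783 for Gapdh. Signals of different genes are not compared, because each probe set has its own affinity, and in bulk RNA fewer expressing cells and less RNA per cell cannot be told apart.

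The promoters of 7 genes are shown first, because these genes lie on both sides of the background line although several carry the same element. Each sequence runs 5' to 3' on the strand of the gene, from 250 bases before to 50 after the annotated start site, as given by RefSeq for build GRCm38.p6. Capitals mark matches to the ISRE core GAAANNGAAA, searched on both strands (on the other strand it reads as the reverse complement). Ifit3 (chr19:34583279-34583578, plus strand) and its neighbour Ifit1 (chr19:34640639-34640938, plus strand) each held 2 matches, yet only Ifit3 was above background on both arrays. That split depended on the background chosen: Ifit3 was lost at the 99th percentile of the sensory receptor probe sets, and Ifit1 passed at the 90th. Bst2 (chr8:71537423-71537722, minus strand) held 2 overlapping matches and was not above background on either array. Rsad2 (chr12:26456403-26456702, minus strand) held 1 match and was above background on both. Of the IFITM genes, which were all above background, Ifitm3 (chr7:141010695-141010994, minus strand) held 2 matches just after its start site, while Ifitm1 (chr7:140967826-140968125, plus strand) and Ifitm6 (chr7:141016843-141017142, minus strand) held none in these 300 bases.
Ifit3: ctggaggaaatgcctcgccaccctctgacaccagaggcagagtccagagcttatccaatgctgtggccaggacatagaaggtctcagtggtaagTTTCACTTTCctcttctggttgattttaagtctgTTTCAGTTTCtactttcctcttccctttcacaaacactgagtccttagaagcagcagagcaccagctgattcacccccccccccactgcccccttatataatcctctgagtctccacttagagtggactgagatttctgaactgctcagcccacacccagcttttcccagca
Ifit1: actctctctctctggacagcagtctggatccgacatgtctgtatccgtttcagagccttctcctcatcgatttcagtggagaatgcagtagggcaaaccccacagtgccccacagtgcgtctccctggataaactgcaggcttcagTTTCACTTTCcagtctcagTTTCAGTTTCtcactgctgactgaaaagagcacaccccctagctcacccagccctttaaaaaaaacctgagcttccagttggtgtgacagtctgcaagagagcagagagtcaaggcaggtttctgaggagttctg
Bst2: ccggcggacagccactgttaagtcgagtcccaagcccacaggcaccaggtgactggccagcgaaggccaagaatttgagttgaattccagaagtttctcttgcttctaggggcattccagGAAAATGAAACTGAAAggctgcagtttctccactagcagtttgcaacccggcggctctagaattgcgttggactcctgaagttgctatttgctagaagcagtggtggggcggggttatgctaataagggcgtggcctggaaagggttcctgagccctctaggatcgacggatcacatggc
Rsad2: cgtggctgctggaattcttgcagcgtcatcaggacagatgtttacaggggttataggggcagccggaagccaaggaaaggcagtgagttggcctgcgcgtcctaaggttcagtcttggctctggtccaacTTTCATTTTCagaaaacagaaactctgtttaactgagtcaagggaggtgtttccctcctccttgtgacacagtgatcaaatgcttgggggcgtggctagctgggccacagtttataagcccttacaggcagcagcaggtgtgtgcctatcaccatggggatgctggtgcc
Ifitm3: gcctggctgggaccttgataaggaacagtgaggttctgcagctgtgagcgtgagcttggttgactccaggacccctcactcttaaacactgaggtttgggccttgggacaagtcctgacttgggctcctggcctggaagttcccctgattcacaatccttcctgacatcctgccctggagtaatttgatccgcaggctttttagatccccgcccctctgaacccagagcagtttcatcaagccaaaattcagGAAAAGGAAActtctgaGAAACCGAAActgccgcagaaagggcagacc
Ifitm1: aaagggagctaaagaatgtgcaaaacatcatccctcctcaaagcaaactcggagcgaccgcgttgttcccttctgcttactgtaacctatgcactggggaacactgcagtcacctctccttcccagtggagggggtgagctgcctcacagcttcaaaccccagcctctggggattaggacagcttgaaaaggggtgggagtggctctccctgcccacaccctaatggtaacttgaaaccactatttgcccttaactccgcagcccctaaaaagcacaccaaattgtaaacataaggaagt
Ifitm6: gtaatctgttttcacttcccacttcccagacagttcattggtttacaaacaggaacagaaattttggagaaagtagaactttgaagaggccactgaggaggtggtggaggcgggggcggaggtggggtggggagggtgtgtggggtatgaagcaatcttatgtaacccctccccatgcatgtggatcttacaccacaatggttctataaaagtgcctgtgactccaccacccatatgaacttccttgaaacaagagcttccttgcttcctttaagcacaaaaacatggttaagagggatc

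Most of the listed interferon-stimulated genes were above background in these resting neutrophils. On both arrays 37 of the 45 measured genes (82.2%) were above it, where 40.4% of all 18194 genes were (7354 genes). Without the 4 receptor genes the count was 33 of 41 (80.5%). In a second list of further interferon-induced genes 29 of 45 (64.4%) were above background. The lists were chosen with earlier results of these data known, so these shares may depend on that choice. The receptors, the IRF factors with Usp18, the nucleic acid sensors, the OAS family and the IFITM family were complete in their measured members, and the 8 genes not above background on both arrays were Ifit1, Ifit2, Mx1, Mx2, Bst2, Gbp2, Gbp3 and Herc6. A stricter background, the 99th percentile of the sensory receptor probe sets (136 on replicate 1 and 216 on replicate 2), left 32 of 45 genes, where 32.7% of all genes passed. Among the complete groups, that background lost Usp18 and Oasl1, the background from genes of other organs lost Usp18, Oasl1 and Zbp1, and requiring more than 50% of a gene's probe sets lost Dhx58 and Zbp1. The values of all 45 genes are set out in the plot of signals by role, and the shares by group in the bar chart.

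**Figure D1:**
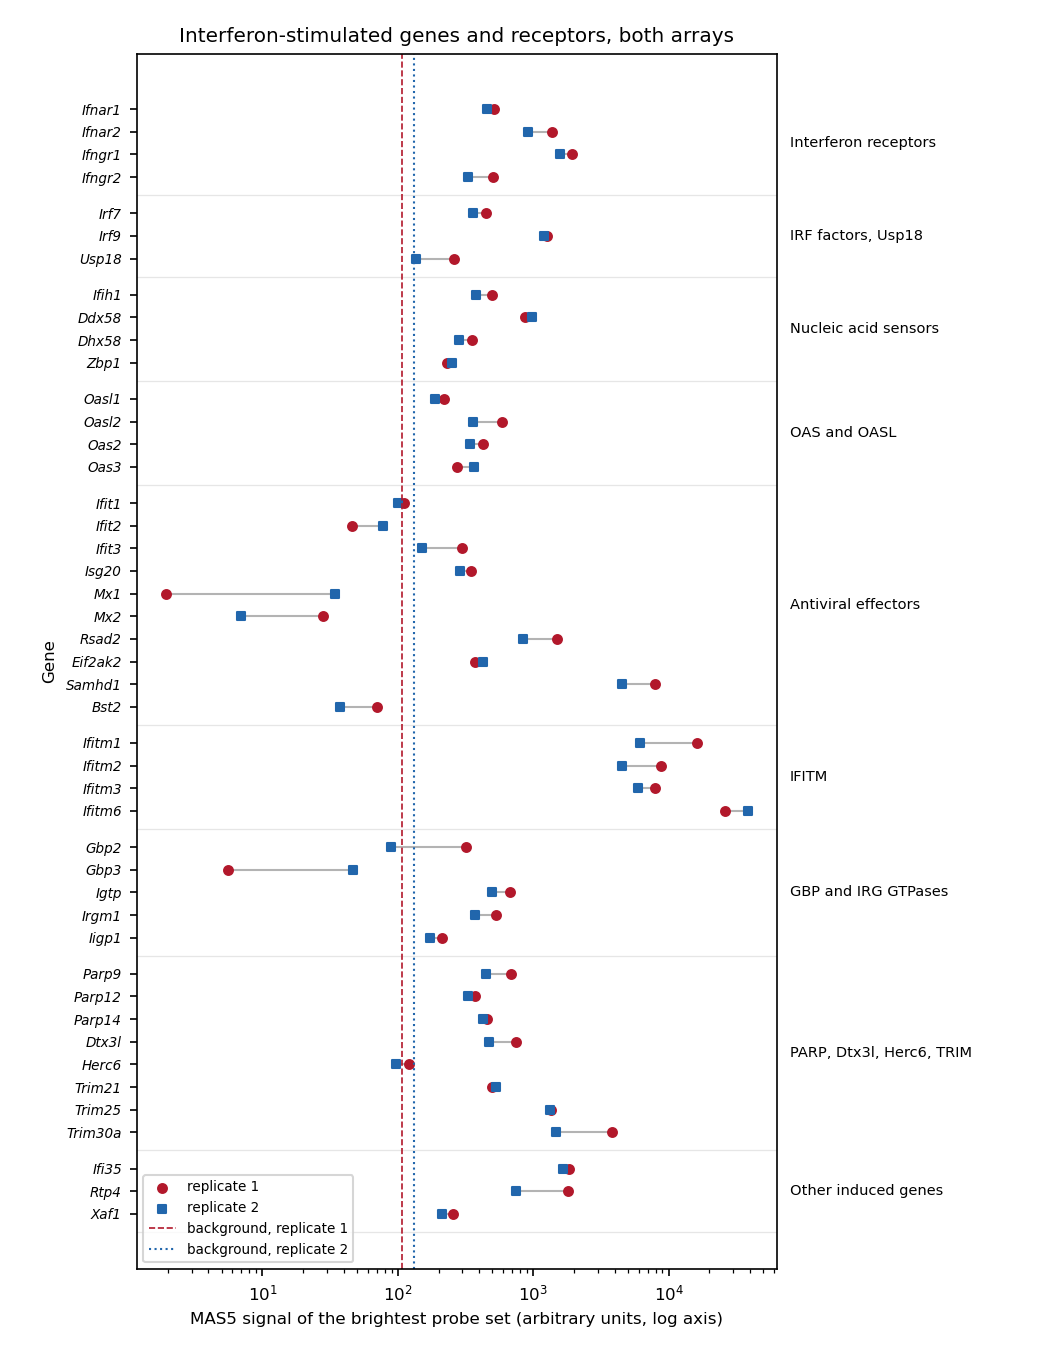
MAS5 signal (log axis, arbitrary units) of the brightest probe set of each of the 45 measured genes on replicate 1 (circles) and replicate 2 (squares), grouped by role; a grey line joins the arrays, and vertical lines mark the background of 108 on replicate 1 and 131 on replicate 2. All IFITM, receptor, sensor and OAS genes lie to the right of both lines, while Mx1, Mx2, Gbp3, Ifit2 and Bst2 lie to the left of both.

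**Figure D2:**
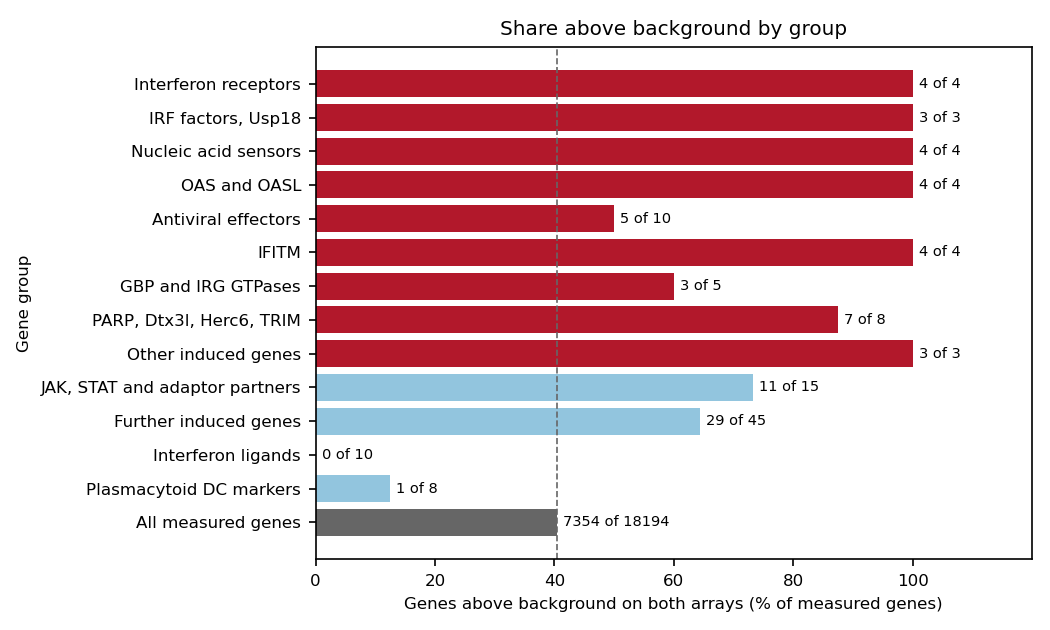
Percent of measured genes above background on both arrays for each role group (red), for other interferon pathway and marker lists (light blue) and for all measured genes (grey, repeated as the dashed line at 40.4%). Counts stand beside the bars, from 4 of 4 receptors to 0 of 10 interferon ligands.

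All 4 interferon receptor subunits were above background on both arrays, where 40.4% of all genes were. Ifnar1 had signals of 513 and 455 on replicates 1 and 2, and Ifnar2 had 1376 and 916. For the interferon gamma receptor, Ifngr1, the ligand-binding chain, had 1918 and 1570, and Ifngr2, the signalling chain, had 505 and 329. Each of the 4 genes was higher on replicate 1, by 0.17 (Ifnar1) to 0.62 (Ifngr2) on the log2 scale. All 3 probe sets of Ifnar2 and both of Ifnar1 and of Ifngr2 were above background, so these calls do not hang on 1 probe set.

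Of the pathway between receptor and promoter, most listed genes were above background, while no interferon gene was. Among 15 measured signalling partners outside the list of 48, 11 (73.3%) were above background on both arrays, where 40.4% of all genes were. They included the receptor-associated kinases Jak1 (4186 and 3488 on replicates 1 and 2), Jak2 (1096 and 916) and Tyk2 (332 and 602). The factors Stat2 (165 and 168), Stat3 (3247 and 2316) and Irf1 (2136 and 1148) and the Toll-like receptor adaptor Myd88 (2874 and 1908) were also among them. Stat2 and Tyk2 were above background on 1 of 2 probe sets each. On replicate 2 Stat2 lay below the stricter backgrounds of 216 (99th percentile) and 173 (genes of other organs). Socs1, an inhibitor of interferon signalling, had 8.70 and 7.22 and was not above background, whereas Socs3, an inhibitor best known from G-CSF and interleukin 6 signalling, had 4776 and 2078. Of the interferon ligands 0 of 10 measured genes were above background on both arrays: Ifnb1 had 52.8 and 58.0 and Ifng had 0.978 and 24.3. Ifna1 (150 and 123) and Ifna2 (139 and 15.5) passed it on replicate 1 alone, and Ifna1 was read on a probe set whose name marks possible cross-hybridisation (_x_at).

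The transcription factors and feedback regulators of the response were present. Irf9, the DNA-binding partner of STAT proteins, had signals of 1267 and 1204, a log2 mean of 10.27 ± 0.05 (SD, n = 2), so the arrays nearly coincided. Irf7, the factor that amplifies type I interferon production and is itself induced by interferon, had 445 and 359 (8.64 ± 0.22, SD, n = 2). Usp18, the protease that removes ISG15 from proteins and dampens signalling at Ifnar2, had 261 and 137 and lay just above the background of replicate 2.

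Genes for cytosolic sensors were above background on both arrays in 4 of 4 cases, where 40.4% of all genes were. Ddx58, which encodes RIG-I, a sensor of viral RNA ends, had 863 and 977. Ifih1, which encodes MDA5, a sensor of long double-stranded RNA, had 493 and 381, and Dhx58, which encodes their relative LGP2, had 353 and 282. Zbp1, a sensor of Z-form nucleic acids that can trigger cell death, had 232 and 252. Dhx58 and Zbp1 were above background on 1 of 3 and 1 of 2 probe sets, and Ddx58 on 2 of 3. The OAS genes encode enzymes that make 2'-5' oligoadenylate on binding double-stranded RNA, and the OASL genes encode relatives of them. Oasl1 had 219 and 188, Oasl2 had 587 and 357, Oas2 had 428 and 344, and Oas3 had 275 and 363.

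The antiviral effectors divided, with 5 of 10 measured genes above background on both arrays. Samhd1, which encodes an enzyme that depletes the nucleotides needed for reverse transcription, had 7893 and 4515, and all 5 of its probe sets were above background. Rsad2, which encodes viperin, had 1487 and 834 on its brightest probe set and was above background on all 3. Eif2ak2, the kinase PKR that halts translation, had 374 and 425, and Isg20, an exonuclease, had 346 and 287. The IFIT genes encode proteins that bind foreign RNA, and Ifit3 had 296 and 150, on replicate 2 near the background of 131. Its neighbours differed: Ifit1 had 111 and 101, just above background on replicate 1 and below it on replicate 2, and Ifit2 had 45.8 and 78.3, below it on both. Mx1 had 1.93 and 34.6, and Mx2 had 27.9 and 6.96; they encode GTPases that block viral nucleocapsids, and C57BL/6 mice are known to carry a disrupted Mx1 allele. Bst2, which encodes tetherin and whose product also marks plasmacytoid dendritic cells in mice, had 70.7 and 37.7. Siglech, another marker of those cells, had 93.6 and 15.6 and was likewise below background on both arrays. Of the 8 listed markers of those cells, Klk1 (217 and 332) was above background on both arrays, and 1 more passed on replicate 1 alone.

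The IFITM genes encode small membrane proteins that hinder the entry of enveloped viruses. Ifitm6 had signals of 26066 and 38442, a log2 mean of 14.95 ± 0.40 (SD, n = 2), and Ifitm1 had 16303 and 6128 (13.29 ± 1.00, SD, n = 2). Ifitm2 had 8731 and 4493 (12.61 ± 0.68, SD, n = 2), and Ifitm3 had 7906 and 5905 (12.74 ± 0.30, SD, n = 2). All 4 were far above background on both arrays. They lie together on chromosome 7 and are paralogs, each read here on 1 probe set, and cross-hybridisation between them was not tested. Ifitm6 was higher on replicate 2 and the other 3 on replicate 1. After scaling to the hybridisation controls Ifitm6 too was higher on replicate 1, as were 91.9% of all genes above background.

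Genes for interferon-induced GTPases that attack pathogen vacuoles were above background in 3 of 5 measured cases (60.0%), where 40.4% of all genes were. The immunity-related GTPase genes Igtp (679 and 492 on replicates 1 and 2), Irgm1 (535 and 369) and Iigp1 (211 and 173) were above it on both arrays, Iigp1 on 1 of 2 probe sets. The guanylate-binding protein genes were not: Gbp3 had 5.60 and 46.5, and Gbp2 had 319 on replicate 1 and 88.9 on replicate 2. Both probe sets of Gbp2 passed the background of replicate 1 alone, and against the background of replicate 2 it was at least 2.43-fold higher on replicate 1. Gbp7, a relative from the list of further induced genes, was above background on both of its probe sets, with 1190 and 695 on the brighter. Gbp6, another relative from that list, had 9.42 and 6.68 on the brighter, and 0 of 2 probe sets were above background on both arrays.

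Genes for ADP-ribosylation, ubiquitin transfer and TRIM proteins were above background in 7 of 8 cases (87.5%), where 40.4% of all genes were. Parp9 had 684 and 445, and Dtx3l, which encodes its partner in a ubiquitin ligase complex, had 743 and 474. Both were higher on replicate 1, by 0.62 and 0.65 on the log2 scale. Parp14, their neighbour in the genome and another ADP-ribosyltransferase gene, had 454 and 425 on 1 probe set, while the other (184 and 54.9) was not above background on both arrays. With the mean over probe sets its difference was 0.92 on the log2 scale, against 0.09 on the brightest. Parp12, a zinc finger member of the family, had 373 and 331. Trim30a, a mouse TRIM protein that restrains Toll-like receptor signalling, had 3812 and 1470, and its second probe set had 2845 and 1148. Trim25, which promotes RIG-I signalling, had 1348 and 1322 on its brightest probe set by mean log2 signal, and its other 2, also above background, had 1431 and 926 (difference 0.63) and 466 and 241 (0.95). Trim21, a cytosolic antibody receptor, had 499 and 532. Herc6, the main ligase that attaches ISG15 in mice, had 120 and 96.9 on the brightest of its 4 probe sets, and none of the 4 was above background on both arrays. The other induced genes Ifi35 (1835 and 1667), Rtp4 (1806 and 749) and Xaf1 (256 and 213) were above it, Rtp4 and Xaf1 on 1 of 2 probe sets each.

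A further 50 interferon-induced genes were listed beside the 48. Of the 45 measured, 29 (64.4%) were above background on both arrays, where 40.4% of all genes were. Slfn4, a myeloid schlafen gene, had 19809 and 27478 on replicates 1 and 2, Slfn2 had 7024 and 6050, and Samd9l, an antiviral growth inhibitor, had 5203 and 5888. Cmpk2, a nucleotide kinase gene, had 3694 and 4203, the immunoproteasome gene Psmb8 had 1567 and 1056, and Oas1a had 940 and 943. The chemokine genes Cxcl9 (7.56 and 66.2) and Cxcl10 (84.6 and 12.3), which are strongly induced by interferon gamma in many cells, were below background on both arrays.

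As a group, the listed interferon-stimulated genes ran higher on replicate 1 than on replicate 2. The further induced genes did not (14 of 29 higher on replicate 1, median difference 0.00). Both lists were chosen with earlier results of these data known. Of the 37 genes above background on both arrays, 31 had the higher signal on replicate 1, where 43.7% of all 7354 genes above background did. Their median difference, replicate 1 minus replicate 2, was 0.31 on the log2 scale, against -0.07 over all 7354 genes. Ifitm1 was 2.66-fold, Trim30a 2.59-fold and Rtp4 2.41-fold higher on replicate 1, and these 3 were the only ones of the 37 over 2-fold apart in this direction (1.97% of all genes above background were). Ifit3 (1.97-fold), Ifitm2 (1.94-fold) and Usp18 (1.90-fold) lay just inside that limit. None of the 37 was over 2-fold higher on replicate 2, where 3.43% of all genes above background were. Of the 6 genes higher there, Ifitm6 (1.47-fold) and Oas3 (1.32-fold) led, followed by Eif2ak2, Ddx58, Zbp1 and Trim21. All 6 were higher on replicate 1 after scaling to the hybridisation controls, but so were 91.9% of all genes above background. With 1 array for each experiment these differences have no replicate check and no test.

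**Figure D3:**
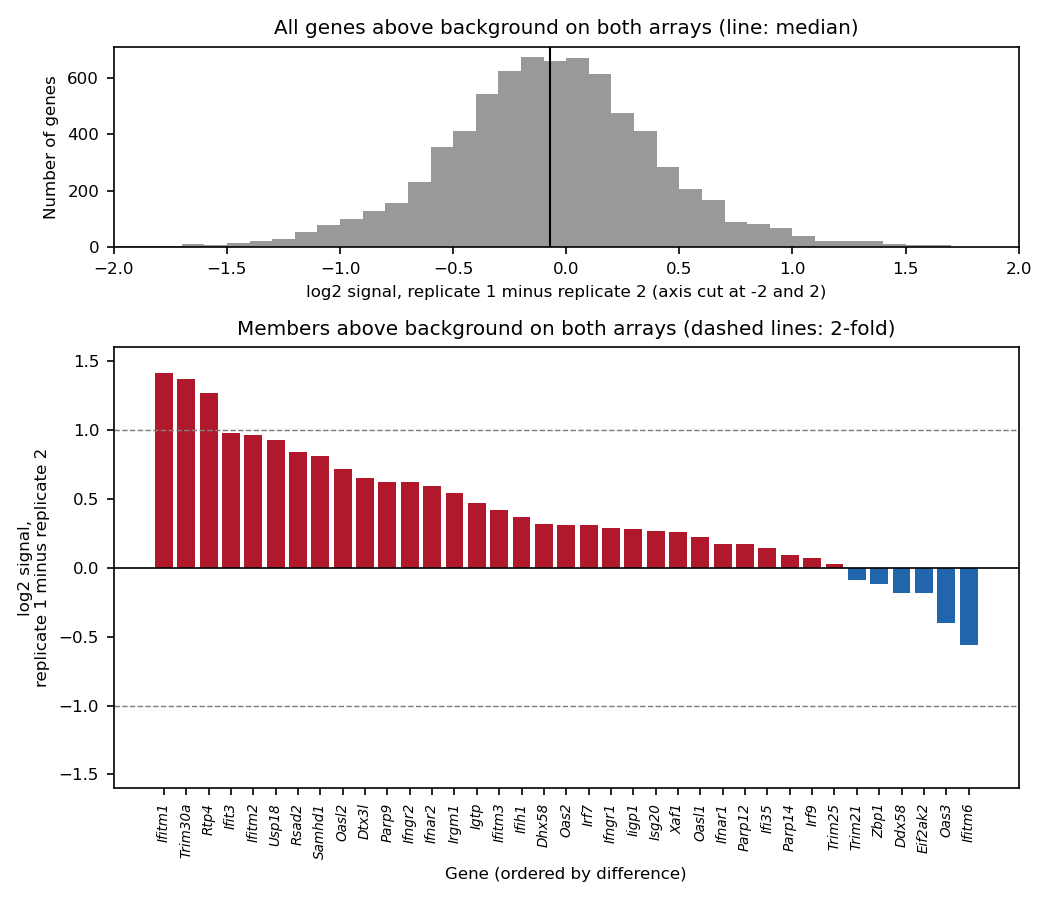
Upper panel, number of genes by log2 signal difference, replicate 1 minus replicate 2, for the 7354 genes above background on both arrays (axis limited to -2 to 2, line at the median of -0.07); lower panel, the same difference for each of the 37 genes above background on both arrays, with dashed lines at 2-fold. Bars run from 1.41 (Ifitm1) to -0.56 (Ifitm6), with 31 above 0 and 6 below.

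The SD between the arrays of a gene's log2 level had a median of 0.26 over the 37 genes (range 0.02 to 1.00) and of 0.21 over all genes above background. Of the further induced genes, 14 of 29 were higher on replicate 1, with a median difference of 0.00. Of the signalling partners, 8 of 11 were higher on replicate 1, with a median of 0.34, among them Socs3 (1.20) and Irf1 (0.90). The difference between these lists was not tested. Under at least 1 of 9 alternatives 10 genes changed sign: Ddx58, Dhx58, Eif2ak2, Ifi35, Ifitm6, Iigp1, Oas3, Trim21, Trim25 and Zbp1. After scaling to the hybridisation controls all 37 genes were higher on replicate 1 (median 1.04), but so were 91.9% of all genes (median 0.66). That scaling shifts every difference by the same amount. The median relative to all genes was therefore 0.39 both there and as deposited by construction. Within genes, 12 of the 37 had more than 1 probe set above background, and for 3 of these, Ddx58, Eif2ak2 and Ifi35, the probe sets disagreed in direction (Ddx58 had 863 and 977 on one and 283 and 144 on another). Summed markers of monocytes and of macrophages were also higher on replicate 1, but single markers went both ways. The summed signal of the 8 monocyte markers was 9184 on replicate 1 and 4758 on replicate 2, mostly from Csf1r (5020 and 1928) and Fcgr4 (3419 and 2091). Of the 4 above background 3 were higher on replicate 1, and Ccr2 (157 and 220) was higher on replicate 2. The summed signal of the 8 macrophage markers was 1396 and 832, and the 3 above background on both arrays were Adgre1 (627 and 217), C1qb (256 and 163) and Vcam1 (260 and 255). Of the other 5 macrophage markers, Cd163 (121 and 82.5) passed the background of replicate 1 alone, and C1qa, C1qc, Mertk and Spic were below it on both arrays. The summed signal of the 8 plasmacytoid dendritic cell markers was 786 and 898, and that of the 10 neutrophil markers 240677 and 345346. Of these 10, 8 were higher on replicate 2, among them the granule and S100 genes, and the receptor genes Cxcr2 (7212 and 3224) and Csf3r (7951 and 4670) were higher on replicate 1, by 1.16 and 0.77 on the log2 scale. Their part in the difference was not tested.

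The ISRE core was present in many of the listed promoters, which belong to genes named for their response to interferon. RefSeq promoters were matched for 38 of the 48 genes, and 18 of them (47.4%) held the ISRE core GAAANNGAAA in at least 1 promoter, where 3.99% of all 27025 genes with a promoter did (3.44% of the 32851 promoter windows). The gamma-activated sequence TTCNNNGAA, which reads the same on both strands, was found in 12 of 38 genes (31.6%), against 9.55% of all genes. Both motifs were present in 5 genes, and in Bst2 and Ifitm3 a match to one overlapped a match to the other. None of the 4 receptor genes held the ISRE core in this window. Isg15 held 3 overlapping matches, at bases -78, -72 and -66 from the start site, and in Ifit1 the 2 matches began at -104 and -85.

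The genes with and without the motif were then set beside the calls against background, with no test. Of the 16 measured genes with the ISRE core 12 were above background on both arrays (75.0%), and of the 19 measured genes whose promoters lacked it 17 were (89.5%), a group that includes the receptors. Gbp2, Gbp3, Ifit1 and Bst2 held the motif and were not above background on both arrays. The median difference between the arrays was 0.44 over the 12 genes with the motif and 0.27 over the 17 without it, but by count 8 of the 12 and 16 of the 17 were higher on replicate 1. Across the array, 223 of the 508 measured genes outside the list whose promoters held the motif were above background (43.9%), where 6033 of all 14453 measured genes with a promoter were (41.7%). A match describes letters in a 300-base window and does not show that a factor binds there. The positions are drawn in the map of motif matches.

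**Figure D4:**
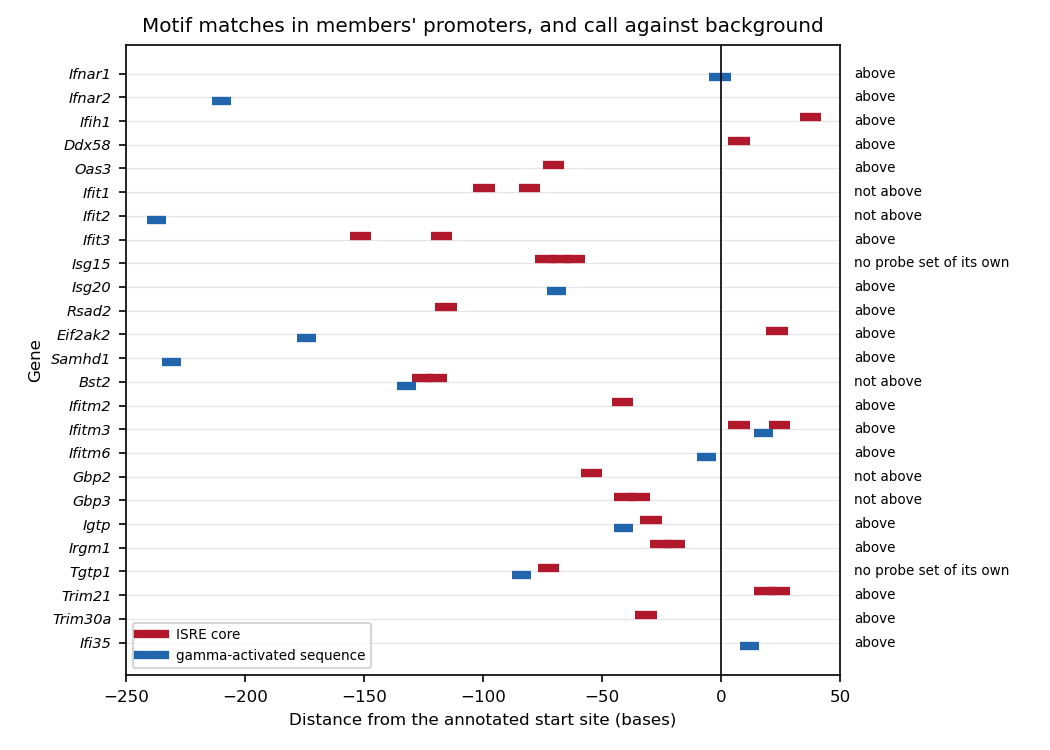
Positions of matches to the ISRE core (red) and the gamma-activated sequence (blue) in the first listed RefSeq promoter of each gene that held at least 1, in bases from the annotated start site (vertical line at 0); words at the right give the call against background on both arrays. Ifit1, Gbp2, Gbp3 and Bst2 hold the ISRE core and are not above background, while Ifit3, Rsad2, Irgm1 and Igtp hold it and are.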

How the data were processed

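Arrays of sorted bone marrow neutrophils were used. The authors made the deposited values with MAS5, per the submitters' processing notes (version and settings not given in the sources used here): they are linear signal intensities, 1 for each of 45101 probe sets and array, scaled to a common trimmed mean, with no detection calls. RNA (200 ng) was labelled with biotin, per the labels' protocols. In GEO's platform annotation, 34958 probe sets had 1 gene symbol, 932 several and 9211 none.

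Background was the 95th percentile of 87 sensory receptor probe sets (78 genes), and a gene passed if any probe set exceeded it on both arrays. The brightest probe set gave the level, as log2 of the signal after a floor of 1. Differences are replicate 1 minus replicate 2. With 1 group and 1 array for each experiment, counts and medians are set beside those of all genes, without tests. The number of arrays, 2, limits the precision. All 48 genes, and in the other lists the first 4 measured genes and any gene above background, could be named. Genes named outside that rule, such as Socs1, Ifng, Gbp6, Cd163, Mertk and Spic, were chosen after their values were seen. The members and lists were chosen with earlier results of these data known. Promoters came from RefSeq (GRCm38.p6). Alternatives were other backgrounds, scalings, filters and probe set rules. Calculations used Python 3.11.15 and pandas 2.3.3, and were tested on simulated data.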

Additional observations from a re-analysis of the deposited data

Results flagged for a closer look

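Outside the single-gene probe sets, 2 probe sets shared by a listed gene and a neighbour were above background on both arrays. The probe set shared by Isg15, the ubiquitin-like modifier, and Gm9706 had signals of 176 on replicate 1 and 246 on replicate 2. The probe set shared by Trim30a and Trim30d had 784 on replicate 1 and 354 on replicate 2, the same direction as the 2 probe sets of Trim30a alone. The probe set shared by Tgtp1 and Tgtp2 had 82.5 and 36.7 and was below background on both arrays. These signals cannot be assigned to 1 gene.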

How the results depend on the processing

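No paired analysis was possible because the study has 1 group. The count of 37 genes above background on both arrays ranged from 31 (more than 50% of a gene's probe sets required; 28.2% of all genes passed) to 40 (90th percentile; 45.4%), and was 32 with genes of other organs as the background (29.6%). Leaving out replicate 1 gave 37 (44.2%) and leaving out replicate 2 gave 40 (46.3%). The 99th percentile lost Ifit3, Iigp1, Oasl1, Usp18 and Xaf1, the background of other organs lost Zbp1 in place of Xaf1, the rule of more than 50% lost Dhx58, Iigp1, Parp14, Rtp4, Xaf1 and Zbp1, and the 90th gained Gbp2, Herc6 and Ifit1. In all, 28 genes were above background under the 3 other backgrounds, the rule of more than 50% of probe sets, and without _x_at and _s_at probe sets. The median difference of 0.31 stayed above 0 under all 9 alternatives and lay between 0.29 and 0.47, except for 1.04 when scaled to the hybridisation controls, a setting in which all genes had a median of 0.66. Without the receptor genes, an alternative added after seeing the data, it was 0.31, and relative to genes of the same level, also added then, 0.42. The count of 3 genes over 2-fold apart in either direction (5.40% of all genes) was 6 with median scaling (5.41%), 5 with quantile normalization (5.10%), 23 with scaling to the hybridisation controls (21.9%) and 5 relative to genes of the same level (4.84%), all higher on replicate 1. It was 7 of 45 without the filter (5 higher on replicate 1 and 2 on replicate 2; 27.1%) and 6 with the mean over probe sets (5 and 1; 8.93%). Of the 37 single-gene differences, 27 kept a positive sign under every alternative and 10 changed sign under at least 1, none of them over 2-fold as reported. Several alternatives could not make a positive difference negative. Median scaling and scaling to the hybridisation controls shifted every difference towards replicate 1. Leaving out the filter or the receptor genes reused the same values, and adding 32 to each signal kept the direction of each probe set. For genes with 1 probe set, the probe set rules also reused the same values. Genes near the background, such as Usp18, Ifit1 and Herc6, are limited by signal over background.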
